A study of Mus musculus with 4 samples.

Results

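The genes described here are the mouse BTB zinc finger genes named Zbtb with a number, the structural family of the repressor Hic1. They were taken by a rule on gene symbols that uses no measured value, though earlier results of these data were known when it was set. Of the 55401 rows of the count table, 41 carry such a symbol. RNA was sequenced from sorted mouse spleen P14 CD8+ T cells. P14 cells carry a transgenic receptor that recognises a peptide of lymphocytic choriomeningitis virus (LCMV), and the mice had been infected with LCMV Armstrong. The groups were P14 cells with a Hic1 overexpression vector (2 libraries) and P14 cells with an empty vector (2 libraries), both named pMIA in the labels. The sample labels put the cells at day 32 after infection and the series text at day 7, and nothing in the files settles which holds. The comparison asks which transcripts differ when these T cells carry the Hic1 vector.

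BTB zinc finger proteins carry a BTB domain near the start of the protein, through which they pair and bind corepressors such as NCoR complexes or the ubiquitin ligase scaffold Cul3, and zinc fingers toward the end, which bind DNA. Most act as repressors, and several set the fate of lymphocytes. Zbtb7b (ThPOK) commits thymocytes to the CD4 lineage together with its paralog Zbtb7a (LRF), Zbtb16 (PLZF) drives innate-like T cells, and Zbtb1 and Zbtb17 (Miz-1) are needed for lymphocyte development. One of the 41 symbols goes against the family name: Zbtb8os was named for lying opposite Zbtb8a and encodes archease, a cofactor of tRNA ligation, so counts are also given without it.

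Of the members, Zbtb7a alone passed the test, and it was lower with the Hic1 vector. The first sequence below is shown because it lies before a start site of that gene. Those of the paralog Zbtb7b and of Zbtb11, the member of next lowest p, are shown to compare with it. They are the 250 bases before each start site that RefSeq lists for the 3 genes on GRCm38.p6, given 5′ to 3′ on the strand of the gene, and capitals mark the letters GGCACC on either strand (GGTGCC on the other). Those letters begin with GGCA, the core of sites that the HIC1 protein is known to bind. By the gene bounds in GENCODE M21, the Zbtb7a and Zbtb7b windows lie inside their genes, and the Zbtb11 window lies before its gene.
Zbtb7a, chr10:81136021-81136270, plus strand: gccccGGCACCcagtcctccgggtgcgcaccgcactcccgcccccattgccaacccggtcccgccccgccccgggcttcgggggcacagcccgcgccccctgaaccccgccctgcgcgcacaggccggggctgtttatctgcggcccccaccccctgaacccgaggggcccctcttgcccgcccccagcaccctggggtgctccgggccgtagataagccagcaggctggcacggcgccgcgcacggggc
Zbtb7b, chr3:89393379-89393628, minus strand: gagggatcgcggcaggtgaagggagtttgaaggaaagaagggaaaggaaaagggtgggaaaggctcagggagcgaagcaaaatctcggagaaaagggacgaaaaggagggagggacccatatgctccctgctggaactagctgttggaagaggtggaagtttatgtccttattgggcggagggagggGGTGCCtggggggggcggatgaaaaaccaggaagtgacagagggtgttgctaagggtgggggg
Zbtb7b, chr3:89387672-89387921, minus strand: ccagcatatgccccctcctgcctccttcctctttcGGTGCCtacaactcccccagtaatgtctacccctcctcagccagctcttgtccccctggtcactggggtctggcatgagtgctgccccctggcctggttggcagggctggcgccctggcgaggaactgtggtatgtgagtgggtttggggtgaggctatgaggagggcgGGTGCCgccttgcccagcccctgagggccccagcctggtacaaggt
Zbtb11, chr16:55973554-55973803, plus strand: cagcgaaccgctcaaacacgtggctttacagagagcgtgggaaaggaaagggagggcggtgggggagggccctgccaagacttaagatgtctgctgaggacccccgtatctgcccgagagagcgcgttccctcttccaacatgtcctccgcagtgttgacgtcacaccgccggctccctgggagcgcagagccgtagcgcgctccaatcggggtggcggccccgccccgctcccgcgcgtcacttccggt
The Zbtb7a window held GGCACC once, starting 245 bases before the start site, and the Zbtb7b windows held 1 and 2 matches. GGCACC was not in the Zbtb11 window. The core GGCA, or TGCC for the other strand, also stood unmarked in every window shown, that of Zbtb11 included. RefSeq promoter entries matched 36 of the 41 members, and GGCACC was in a window of 12 of them. By window this was 15 of 49, against 12.9% of the 32851 windows of the same length over all genes. The windows were not matched for GC content, which was 78% for Zbtb7a, 56.4% and 64.8% for Zbtb7b and 66% for Zbtb11. Overlapping windows, as for Zbtb25, were counted separately. The windows shown did not hold the longer run GGGCANCC, which contains GGCACC where N is C. It was in windows of 3 members, Zbtb1, Zbtb26 and Zbtb38, and in 4.5% of all windows. These are matches of letters only.

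The libraries held 7501285 and 8839317 counts for the Hic1 vector and 4017346 and 3941364 for the empty vector, so depth differed with the group. Hic1 itself had 314 and 161 counts in the Hic1 vector libraries, against 3 and 5 in the empty vector libraries. The replicates numbered 1 had 3590 (Hic1 vector) and 1885 (empty vector) counts of Xist, the RNA of the inactive X chromosome, and those numbered 2 had 3 and 0. The replicates of a group were thus cells of different sex, and their spread includes any effect of sex, whose size was not tested. Differences are therefore also given within each replicate number, on log2 CPM (counts scaled to library size, with TMM factors) with a prior count of 2. The 10 CD8 T cell identity genes summed to 8419 and 9553 CPM with the Hic1 vector and 7302 and 7914 CPM with the empty vector. All 10 had log2 fold changes above 0, 0.011 (Cd8b1) to 0.48 (Trac), 6 without overlap of the groups, and none was called. Markers of B cells summed to 280 and 214 CPM with the Hic1 vector and 79.6 and 90.4 CPM with the empty vector, most of it Ighm, which rose in the test (log2 fold change 1.57 ± 0.186, SE). Of the 7 markers in that list, 3 were tested, all with values above 0, and 1 rose. Cd79b had 270 and 117 counts with the Hic1 vector and 67 and 13 with the empty vector (log2 fold change 1.36, not called), Cd79a had 17 and 16 with the Hic1 vector and 6 and 0 with the empty vector (log2 fold change 1.19, not called), and Ms4a1 and Pax5 had at most 5 counts in any library. Markers of NK cells summed to 76.3 and 88.5 CPM with the Hic1 vector and 39.1 and 58.7 CPM with the empty vector, and those of myeloid cells to 15.9 and 24.3 CPM with the Hic1 vector and 36.9 and 37 CPM with the empty vector, with none called. The part of other cells in the results below was not tested.

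Of the 41 members, 40 had a count in some library and 33 had enough reads to be tested. Tests used edgeR's quasi-likelihood test on the 11676 genes with enough reads, with Benjamini-Hochberg adjustment over all of them and a threshold of 0.05. No member rose and Zbtb7a fell, which is 1 of 33 tested, while the other 32 did not pass. Over all genes tested 0.719% were called higher and 1.1% lower, so the family's count is near this background. DESeq2 and limma voom also called no member higher and 1 lower. At an unadjusted p below 0.05 by the same edgeR test, 2 of the 33 tested members were higher and 6 of 33 lower. Over all genes tested these shares were 9.41% and 9.7%. The median log2 fold change of the tested members was -0.020, against 0.0087 for all genes tested. Fitted values were above 0 for 15 members and below 0 for 18, while 50.9% of all genes tested were above 0. Both Hic1 vector values were higher than either empty vector value for 6 members, or 18.2% of those tested, while this held for 26.5% of all genes tested. Both were lower for 11 members, or 33.3%, while this held for 24.9% of all genes tested. Without Zbtb8os the counts were 0 higher and 1 lower of 32, with a median of -0.024.

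**Figure D1:**
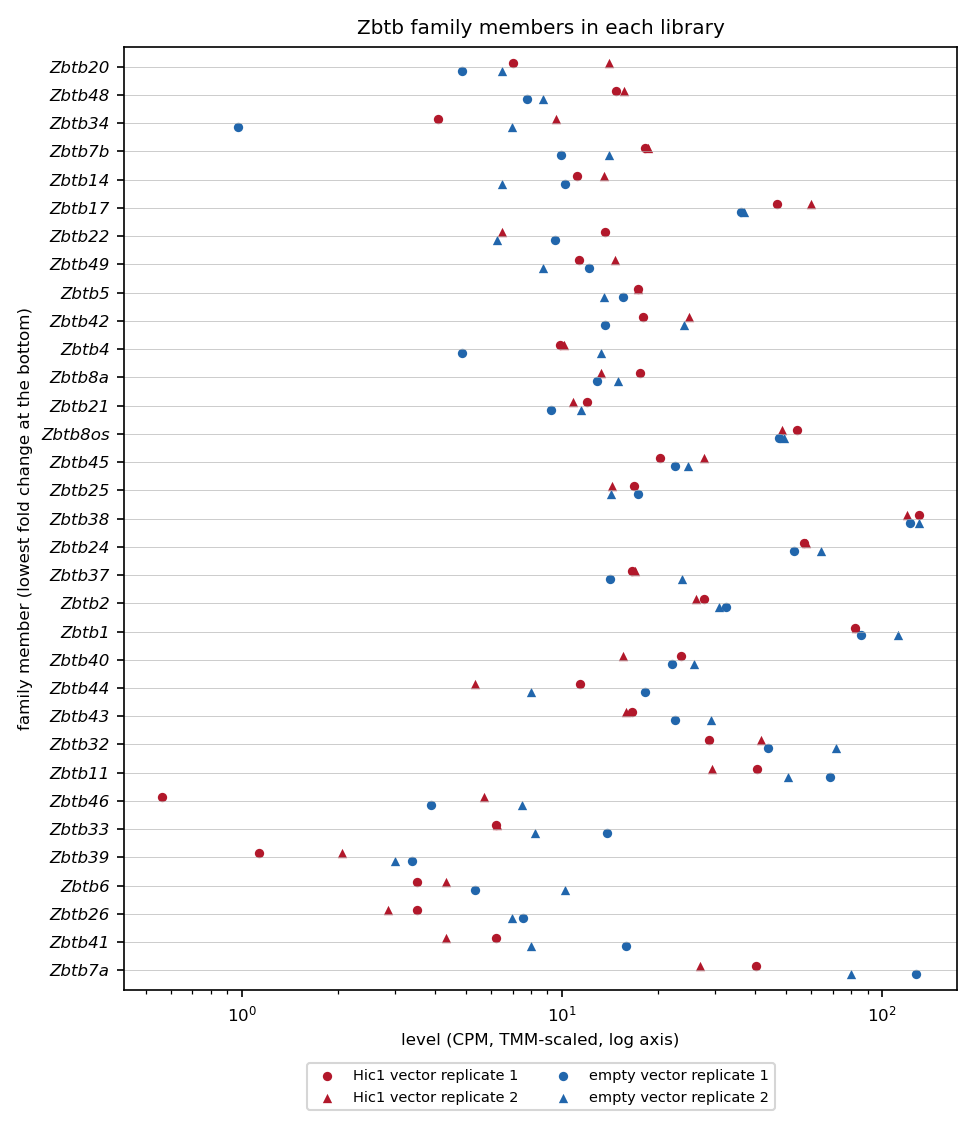
Level of each of the 33 tested members in each library, in TMM-scaled CPM on a log axis, with the 2 Hic1 vector libraries in red and the 2 empty vector libraries in blue (circles for replicate 1, triangles for replicate 2). Zbtb7a, in the bottom row, is at 27 and 40.3 CPM in red and at 79.9 and 127.4 CPM in blue.

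**Figure D2:**
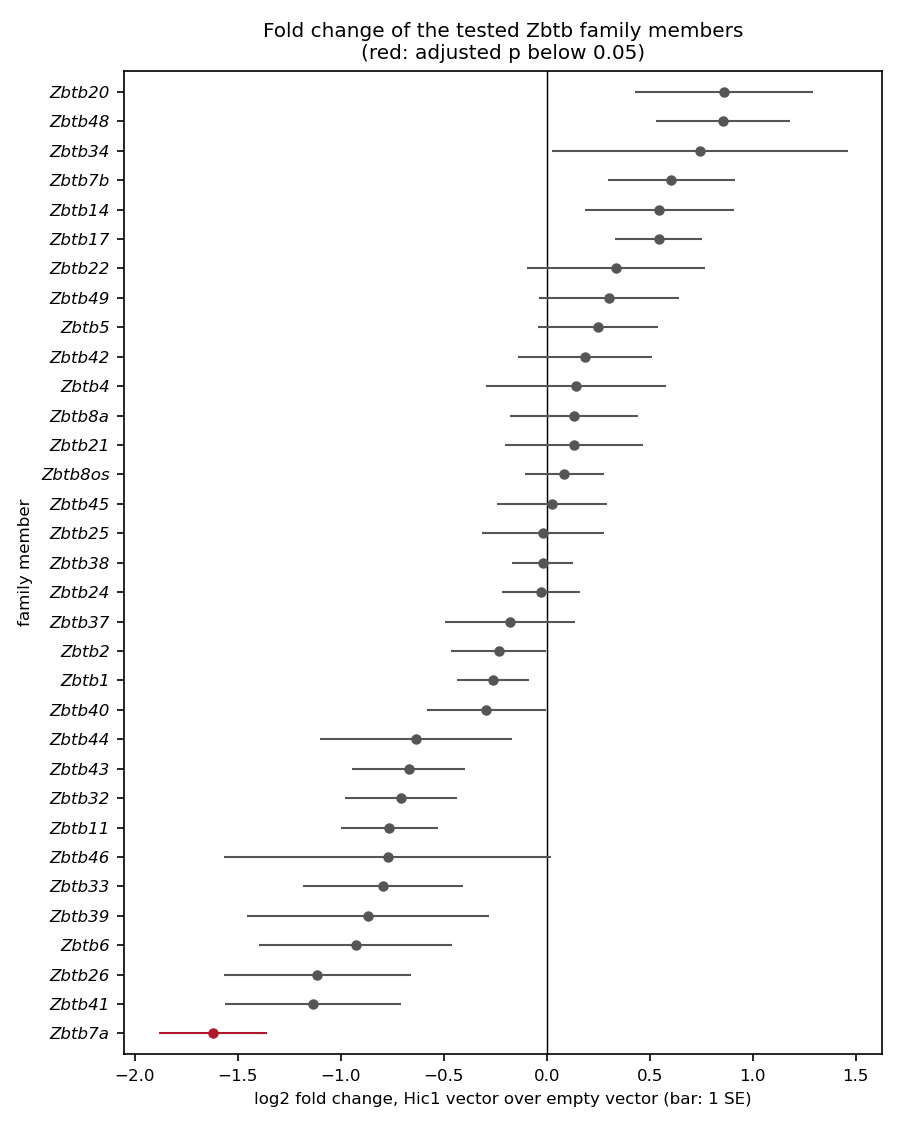
Log2 fold change of the Hic1 vector over the empty vector for the 33 tested members (points), with 1 standard error (bars) from edgeR. Zbtb7a, in red, is the member called at an adjusted p below 0.05, and the others span -1.13 to 0.86.

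Zbtb7a encodes LRF, a repressor that works with ThPOK in CD4 T cells and silences fetal globin genes in red cell precursors. It had 286 and 237 counts in the Hic1 vector libraries, against 525 and 320 in the shallower empty vector libraries. Its level was 40.3 and 27 CPM with the Hic1 vector, against 127.4 and 79.9 CPM with the empty vector. Both Hic1 vector libraries lay below both empty vector libraries. The means were 33.6 ± 9.38 CPM with the Hic1 vector and 103.7 ± 33.6 CPM with the empty vector (SD, n = 2 each). Zbtb7a fell by 1.62 on the log2 scale (SE 0.264), a ratio of 0.326 of the Hic1 vector to the empty vector (edgeR's quasi-likelihood test, adjusted p = 0.0236). The difference was -1.65 within replicate number 1 and -1.55 within number 2. Without empty vector replicate 1 its log2 fold change was -1.24 and it was not called (adjusted p = 0.143 by the same edgeR test, range over 16 alternatives 1.11e-11 to 0.143). In these bulk samples, fewer cells that express a gene and less RNA per cell cannot be told apart. Zbtb7a (ENSMUSG00000035011.15, chromosome 10, positions 81135220 to 81152995, plus strand, mm10) shares no annotated exon with another gene in GENCODE M21.

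The paralog Zbtb7b, whose protein ThPOK is kept low in CD8 T cells by Runx3, did not pass. It was at 18.2 and 18.6 CPM with the Hic1 vector, against 9.95 and 14 CPM with the empty vector, a log2 fold change of 0.61 ± 0.309 (SE). It was 0.39 both without empty vector replicate 1 and after correction for GC content. Its groups did not overlap, with the Hic1 vector libraries above. Per kilobase of exon, the ratio of Zbtb7a to Zbtb7b was 1.82 and 1.19 in the Hic1 vector libraries, against 10.5 and 4.69 in the empty vector libraries. Zbtb7a was thus above its paralog in every library, by less in both Hic1 vector libraries. The third paralog, Zbtb7c, had 2 and 1 counts with the Hic1 vector and 0 and 0 with the empty vector, and was not tested.

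Of the 6 members next in order of p, 4 had values below 0 (Zbtb11, Zbtb41, Zbtb32 and Zbtb26) and Zbtb48 and Zbtb17 had values above 0. Zbtb11, a factor linked to mitochondrial respiration, was at 40.7 and 29.4 CPM with the Hic1 vector, against 68.5 and 50.7 CPM with the empty vector. Its groups did not overlap, and its log2 fold change of -0.76 ± 0.235 (SE) missed the threshold (adjusted p = 0.111 by edgeR). It was called in 2 of 16 alternatives, with no filter on low counts and with a block for replicate number (adjusted p = 0.0289 by edgeR). That number goes with sex, and with GC correction added to the block Zbtb11 was not called (adjusted p = 0.0685 by edgeR). The difference was alike in size within the replicate numbers, -0.75 and -0.78. Its annotated exons share 489 bases with the antisense gene Zbtb11os1 and 238 with Pcnp, and reads of the 2 strands cannot be told apart without stranded counting.

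Zbtb32, which encodes PLZP, a repressor induced in activated lymphocytes, was at 28.7 and 41.7 CPM with the Hic1 vector, against 43.9 and 72 CPM with the empty vector. Every Hic1 vector library lay below every empty vector library, though by little for Hic1 vector replicate 2 and empty vector replicate 1. The log2 fold change of -0.71 ± 0.272 (SE) did not pass (adjusted p = 0.192 by edgeR). Zbtb32 was called in 2 of 16 alternatives, both with the block for replicate number, which goes with sex. Its adjusted p by edgeR was 0.0428 with that block alone and 0.0164 with GC correction added. Its log2 fold change was -0.33 without empty vector replicate 2 and -0.46 without Hic1 vector replicate 1. Zbtb32 had the highest level of the family per kilobase of exon, 14.9 CPM per kb on average with the Hic1 vector and 24.6 CPM per kb with the empty vector. Its Hic1 vector libraries, at 12.2 and 17.7 CPM per kb, overlap the range of the next members in that order, Zbtb17 and Zbtb24.

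Zbtb41 and Zbtb26 had lower counts. Zbtb41 was at 6.19 and 4.33 CPM with the Hic1 vector, against 15.8 and 7.99 CPM with the empty vector, and did not pass (log2 fold change -1.13 ± 0.427, SE, and -0.58 without empty vector replicate 1). Zbtb26 was at 3.52 and 2.85 CPM with the Hic1 vector, against 7.52 and 7 CPM with the empty vector, and did not pass (-1.11 ± 0.454). Neither gene's groups overlapped. Zbtb26 lies over Zbtb6 on the same strand of chromosome 2, and they share 449 bases of exon, 4.73% of Zbtb26 and 8.84% of Zbtb6. Zbtb6 was at 3.52 and 4.33 CPM with the Hic1 vector, against 5.34 and 10.2 CPM with the empty vector, and did not pass either (-0.93 ± 0.467, and -0.43 without empty vector replicate 2). Reads in the shared exon cannot be assigned to 1 of these 2 genes. How the authors' counting treated them is not given, so the values of the 2 genes may not be fully separate.

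Zbtb48 encodes TZAP, a protein that binds telomeres and limits their length. It was at 14.8 and 15.6 CPM with the Hic1 vector, against 7.77 and 8.74 CPM with the empty vector, with no overlap between the groups. Its log2 fold change of 0.86 ± 0.324 (SE) did not pass (adjusted p = 0.18 by edgeR, 0.123 to 0.545 over the alternatives). Zbtb17 encodes Miz-1, a partner of MYC that also protects signalling by the interleukin 7 receptor in early lymphocytes. It was at 46.9 and 59.9 CPM with the Hic1 vector, against 36.2 and 37 CPM with the empty vector, again without overlap. Zbtb17 did not pass (log2 fold change 0.54 ± 0.212, SE, and 0.36 without Hic1 vector replicate 2). After a trend with GC content was taken out of each library, the log2 fold changes were 0.64 for Zbtb48 and 0.33 for Zbtb17.

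Zbtb1, needed for lymphoid development, was at 82.1 and 83.1 CPM with the Hic1 vector, against 85.9 and 112.2 CPM with the empty vector (log2 fold change -0.26 ± 0.173, SE, not passed, and -0.070 without empty vector replicate 2). Zbtb25, a neighbour of Zbtb1 that starts 663 bases away on the other strand of chromosome 12, had -0.018 ± 0.297. Zbtb20, a relative of Bcl6 known from plasma cells and from memory CD8 T cells, was at 7.04 and 14 CPM with the Hic1 vector, against 4.85 and 6.5 CPM with the empty vector. Its groups did not overlap, yet its log2 fold change of 0.86 ± 0.431 did not pass, and leaving out single libraries gave 0.30 to 1.26. Zbtb16 had 26 and 4 counts in the Hic1 vector libraries, against 2 and 2 in the empty vector libraries, and was not tested. The high value was in Hic1 vector replicate 1 alone. Zbtb46, a gene of classical dendritic cells, had 4 and 50 counts with the Hic1 vector, against 16 and 30 with the empty vector, and its groups overlapped (log2 fold change -0.77 ± 0.794). Of the 7 dendritic cell markers, 3 were tested and none was called. Xcr1 had 145 and 139 counts with the Hic1 vector and 49 and 50 with the empty vector, Clec9a had no count, and the list summed to 30.7 and 25.4 CPM with the Hic1 vector and 18.2 and 29 CPM with the empty vector.

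The members that bind methylated DNA are Zbtb33 (Kaiso), Zbtb4 and Zbtb38. Zbtb38 was at 130 and 119.4 CPM with the Hic1 vector, against 122.3 and 130.4 CPM with the empty vector, the highest mean CPM of the family over the 4 libraries. Its log2 fold change of -0.020 had an SE of 0.15, the smallest among the members, and the groups overlapped. Zbtb33, on the X chromosome, was at 6.19 and 6.27 CPM with the Hic1 vector, against 13.8 and 8.24 CPM with the empty vector, and did not pass (-0.79 ± 0.39, and -0.39 without empty vector replicate 1). Its difference was -1.12 within replicate number 1 and -0.38 within number 2. Zbtb4 was at 9.86 and 10.1 CPM with the Hic1 vector, against 4.85 and 13.2 CPM with the empty vector, so both Hic1 vector values lay between those of the empty vector. Zbtb24, which is mutated in a human immunodeficiency with loss of DNA methylation near centromeres, was at 56.9 and 57.9 CPM with the Hic1 vector, against 52.9 and 64.2 CPM with the empty vector (-0.029 ± 0.189).

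The other tested members with a zinc finger name ranged from -0.87 (Zbtb39) to 0.74 (Zbtb34), and none of them passed. Zbtb34 had 29 and 84 counts in the Hic1 vector libraries, against 4 and 28 in the empty vector libraries. Zbtb43, its neighbour 19 kb away, was at 16.5 and 15.8 CPM with the Hic1 vector, against 22.6 and 29.2 CPM with the empty vector, without overlap (-0.67 ± 0.274, not passed). Zbtb2, a repressor of the p53 pathway, was at 27.7 and 26.2 CPM with the Hic1 vector, against 32.5 and 31 CPM with the empty vector (-0.23 ± 0.23). In all, 14 of the 32 members that did not pass had fitted values between -0.3 and 0.3. Archease (Zbtb8os) was at 54.1 and 48.8 CPM with the Hic1 vector, against 47.6 and 49.2 CPM with the empty vector, so its groups overlapped, and it shares 264 bases of exon with Zbtb8a on the other strand.

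The 8 members without enough reads were Zbtb3, Zbtb7c, Zbtb8b, Zbtb9, Zbtb10, Zbtb12, Zbtb16 and Zbtb18, with at most 26 counts in a library. Zbtb12 had no count, which at 3 counts per library allows up to 0.422 and 0.342 CPM with the Hic1 vector and 0.728 and 0.75 CPM with the empty vector. Zbtb9 had 1 and 5 counts with the Hic1 vector and 3 and 1 with the empty vector. Its annotated exons overlap those of Ggnbp1 over 84.4% of their length, and how the authors' counting treated such reads is not given in the sources used here. Zbtb18, a repressor of neuronal development also called RP58, had 5 and 4 counts with the Hic1 vector and 3 and 1 with the empty vector. Its close homolog Zbtb42 was tested and was at 17.9 and 24.8 CPM with the Hic1 vector, against 13.6 and 24 CPM with the empty vector.

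Summed over the 41 members, family RNA made up 794.1 and 786.7 CPM in the Hic1 vector libraries, against 901.5 and 933.1 CPM in the empty vector libraries. The mean difference was -126.9 CPM, of which Zbtb7a gave -70.1 CPM and Zbtb11 -24.5 CPM. Without Zbtb7a the sums were 753.8 and 759.7 CPM with the Hic1 vector and 774.1 and 853.2 CPM with the empty vector. The difference of the sums is a net of members that moved both ways. Mean levels were also lower with the Hic1 vector for Zbtb32 (35.2 against 57.9 CPM) and Zbtb1 (82.6 against 99.1 CPM). For Zbtb17 the mean was higher (53.4 against 36.6 CPM). The sum was not tested.

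Within the replicate numbers, 9 members were above 0 in both, 13 were below 0 in both and 11 differed in sign. These counts, and those beyond 0.5 given next, were not made over all genes tested, so no lean of the family can be read from them. The median over the 33 tested members was 0.087 within number 1 and -0.18 within number 2. Over all genes tested the medians were 0.017 and 0.0061. Differences beyond 0.5 in both numbers were found for Zbtb48 and Zbtb20 above 0 and for 7 members below 0, Zbtb7a having the largest on that side in number 2. In number 1 the lowest value belonged to Zbtb46, at -2.23, with 4 counts in Hic1 vector replicate 1.

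**Figure D3:**
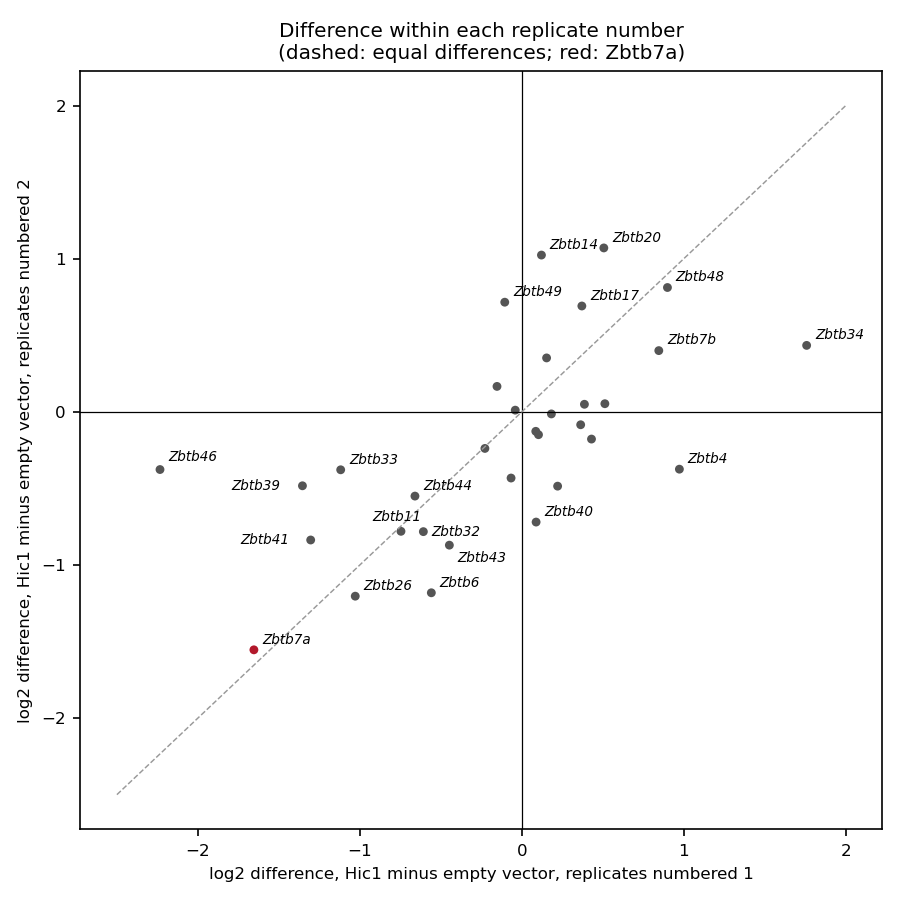
Log2 difference of the Hic1 vector minus the empty vector for each tested member, between the replicates numbered 1 (horizontal axis) and those numbered 2 (vertical axis), with the line of equal differences dashed. Zbtb7a, in red, lies near that line at -1.65 and -1.55, and 11 members have opposite signs on the axes.

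The fold changes of the members moved with the GC content of their transcripts. Of 10 tested members with a GC content below 45% in the longest transcript, 9 had values below 0, against 65.7% of the 3360 genes tested in that range. Of 8 members at 55% or more, 5 had values above 0, against 69.6% of 2214 genes. Across the 33 members the Pearson correlation of GC content with log2 fold change was 0.36, and across 11667 genes tested it was 0.24, both as descriptions of genes that share the same 4 libraries. Zbtb41, Zbtb33, Zbtb26 and Zbtb6 lay at 36.9% to 39.9% GC, and Zbtb48, Zbtb17 and Zbtb7b at 58.1% to 59.9%. Zbtb7a, at 57.4% GC, lay on the other side of that trend, as did Zbtb32 (56.5% GC) and Zbtb40 (55.4% GC). With the trend taken out of each library the log2 fold change of Zbtb7a was -1.84, and this gene was still called (adjusted p = 0.0218 by edgeR). Zbtb32 went from -0.71 to -0.91 and Zbtb40 from -0.29 to -0.48, and neither was called. Values for the low-GC members named above came closer to 0, to -0.94 for Zbtb41, -0.94 for Zbtb26, -0.76 for Zbtb6 and -0.61 for Zbtb33. Other members below 45% GC moved away from 0, Zbtb20 (43% GC) from 0.86 to 1.01 and Zbtb25 (40.8% GC) from -0.018 to 0.16.

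**Figure D4:**
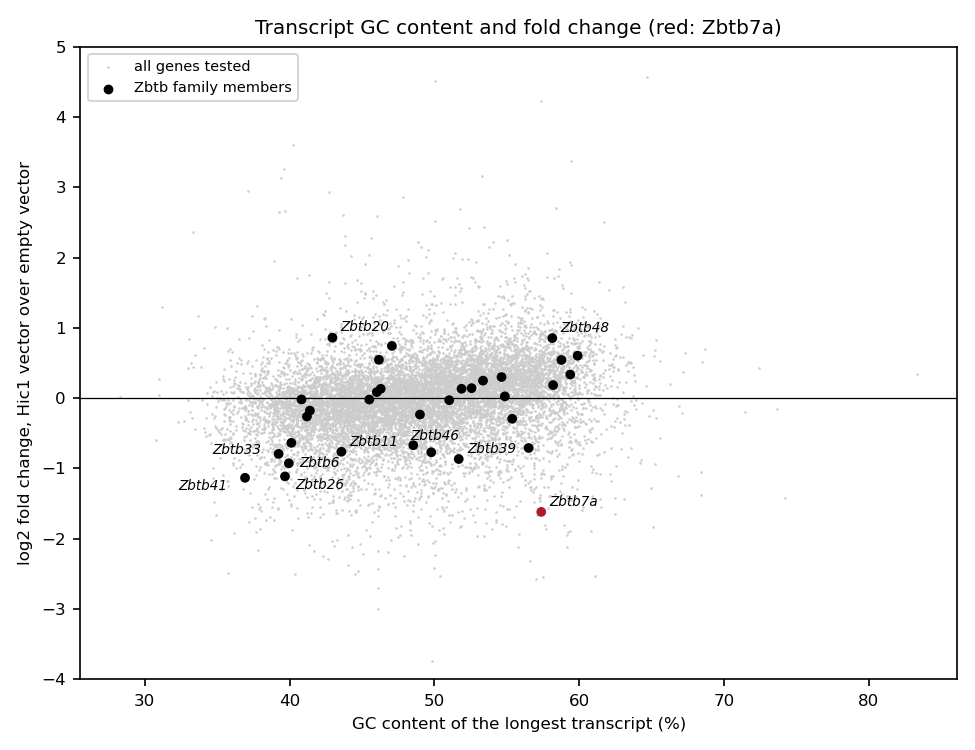
Log2 fold change of the Hic1 vector over the empty vector against the GC content of the longest annotated transcript in percent, for all genes tested (grey) and the Zbtb family members (black, Zbtb7a in red). Most members below 45% GC lie under 0, while Zbtb7a lies at -1.62 with 57.4% GC.

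BTB zinc finger genes that carry other names were described by a list of 8, Hic1 included. Of the 6 tested, Hic1 rose with a log2 fold change of 4.58 ± 0.538 (SE) and none fell, and it was not called without empty vector replicate 1 (4.34) or by limma voom (4.68). The median of the 6 was 0.14. Bcl6, a transcriptional repressor that drives follicular helper T cells and favours memory CD8 T cells, was at 6.05 and 11.6 CPM with the Hic1 vector, against 4.85 and 3.75 CPM with the empty vector, and did not pass (0.99 ± 0.455, 0.46 without Hic1 vector replicate 2). Zfp131 had a value of -0.40 ± 0.245, and of -0.22 without empty vector replicate 1. Hic2, the closest relative of Hic1, had 9 and 14 counts with the Hic1 vector and 4 and 8 with the empty vector and was not tested.

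Of 25 tested genes for corepressors and cullin partners of BTB proteins, 1 rose, Chd3, and none fell, where 0.719% of all genes tested were called higher and 1.1% lower, and the median was 0.080. Chd3, a helicase of the NuRD corepressor complex, was at 124 and 132.6 CPM with the Hic1 vector, against 74.5 and 82.2 CPM with the empty vector (log2 fold change 0.71 ± 0.155, SE). Chd3 was not called when any single library was left out (0.64 to 0.77), nor after GC correction (0.51 with or without the replicate block). The call was also lost with DESeq2 size factors (0.70), library sizes alone (0.64), limma voom (0.71) and thinning to equal depth (0.62). Ctbp1, a corepressor that HIC1 binds, was at 52.4 and 43.8 CPM with the Hic1 vector, against 23.1 and 30 CPM with the empty vector, and did not pass (0.85 ± 0.233), though it was called in 2 of 16 alternatives. Cul3 (0.10), Ncor1 (0.080) and Hdac3 (-0.056) were not called.

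Of 16 tested genes of the CD4 and CD8 lineage choice, in which Zbtb7b and Zbtb7a act, Tcf7 rose, Bcl11b and Runx3 fell and 13 did not pass, where 0.719% of all genes tested were called higher and 1.1% lower. Bcl11b, a factor that holds T cell identity, was at 68.8 and 65.9 CPM with the Hic1 vector, against 126.2 and 128.2 CPM with the empty vector, and fell by 0.91 on the log2 scale (SE 0.154). Runx3, the CD8 lineage factor that silences Zbtb7b, was at 139.5 and 149.7 CPM with the Hic1 vector, against 263.9 and 209.1 CPM with the empty vector, and fell by 0.71 (SE 0.157). Without empty vector replicate 1 neither was called (-0.92 for Bcl11b and -0.53 for Runx3), and Runx3 was also not called without either Hic1 vector library (-0.65 and -0.75), with DESeq2 size factors (-0.72), by limma voom (-0.70) or when thinned (-0.72). Tcf7 had a log2 fold change of 1.98 and was called whichever library was left out. Cd4 had at most 5 counts in a library, and Cd8b1 was at 1685 and 1766 CPM with the Hic1 vector and 1757 and 1669 CPM with the empty vector.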

How the data were processed

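Each Smart-seq2 library was built on 5 µl of lysate after 1000 cells had been sorted again, per the labels' protocols. The deposited table holds raw counts of reads per gene as whole numbers, from the authors. The submitters' processing notes name mm10, STAR 2.5.2b, Trimmomatic 0.38, DESeq2 1.3.2 and featureCounts 1.5.3, with no roles, and the annotation release is not given in the sources used here. A second, scaled table was not used. The labels do not name the animals, but replicates of a group differed in sex transcripts, so they came from different animals, and p-values measure the spread between these samples, sex included. A count was worth 0.114 to 0.25 CPM, and PCR copies of a molecule were not told apart, so floors of 3 counts cover counting error only.

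Genes were kept by filterByExpr (minimum count 10, minimum total 15), scaled by TMM and fitted by group in edgeR 4.0.16 (quasi-likelihood, robust, prior count 2), with Benjamini-Hochberg adjustment over the 11676 genes tested and a threshold of 0.05. The SE is the absolute log2 fold change divided by the square root of F. Exon lengths, overlaps and GC content come from GENCODE M21, whose gene versions matched for all 41 members, and promoters from RefSeq. The test was also run on simulated data, and no result here rests on that run. By rule, values in every library were given for called members, the 6 of next lowest p and the highest per kb, and, in the other lists, Hic1, called genes and up to 4 of lowest p were named. Ighm, Cd79a, Cd79b, Trac, Xcr1, Cul3, Ncor1, Hdac3, Hic2 and Cd8b1 and other members shown per library were chosen after their values were seen. Members and lists were chosen with earlier results of these data known. Alternatives used limma 3.58.1, DESeq2 1.42.0 and R 4.3.3, and GC correction removed a loess trend (span 0.3).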

Additional observations from a re-analysis of the deposited data

How the results depend on the processing

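No member was called higher in any of the 16 alternatives. Members called lower numbered 2 with no filter on low counts (Zbtb7a and Zbtb11), 3 with a replicate block (Zbtb7a, Zbtb11 and Zbtb32), 2 with GC correction and the replicate block (Zbtb7a and Zbtb32), and 0 to 1 with a library left out. Of the other genes named, Ctbp1 was also called with no filter and with the replicate block. The replicate numbers are not stated to pair the samples. In both groups they go with the sex of the cells, so the block also takes out sex. Same-numbered libraries deviated together (r = 0.24 over 11676 genes). Whether they share more than sex is not given. Genes called in all were 213, against 321 with library sizes alone, 418 by DESeq2, 121 by limma voom, 819 with no filter, 794 with the replicate block, 102 after GC correction, 579 with GC correction and the block, 140 with libraries thinned to equal depth, and 8 (without empty vector replicate 1) to 318 with a library left out. With library sizes alone 21.8% of calls were higher, against 39.4%, with GC correction and by limma voom 29.4% and 27.3%, and with no filter 56.3%.

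Uncalled members changed sign as follows: after GC correction Zbtb42 (-0.024), Zbtb38 (0.086), Zbtb45 (-0.15) and Zbtb25 (0.16), with the block as well Zbtb42 (-0.0060), Zbtb37 (0.018), Zbtb38 (0.086), Zbtb45 (-0.16) and Zbtb25 (0.16), with library sizes alone Zbtb45 (-0.043), with no filter Zbtb24 (0.035), Zbtb38 (0.044) and Zbtb25 (0.044), and when thinned Zbtb4 (-0.043), Zbtb24 (0.020) and Zbtb25 (0.097). Leaving out single libraries spanned 0 for Zbtb44 (-1.23 to 0.058), Zbtb34 (-0.021 to 2.49), Zbtb46 (-2.66 to 0.0095), Zbtb22 (-0.26 to 0.77), Zbtb42 (-0.16 to 0.63), Zbtb37 (-0.50 to 0.23), Zbtb8a (-0.067 to 0.32), Zbtb21 (-0.011 to 0.28), Zbtb4 (-0.39 to 0.99), Zbtb24 (-0.16 to 0.10), Zbtb38 (-0.075 to 0.045), Zbtb45 (-0.21 to 0.24) and Zbtb25 (-0.16 to 0.13). The causes were not tested. With 2 libraries per group, members with few reads carry SEs of up to 0.794, so the misses do not show that these genes are alike between the groups.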
